A study of Drosophila melanogaster with 2 samples.

Results

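The exonic peaks outside promoters were the 286 of 5084 binding sites of the Drosophila melanogaster protein shuttle craft (stc) whose summit, the position of highest signal, lay inside an annotated exon and more than 250 bp from every annotated transcription start site (TSS). They were taken from the larger of 2 peak lists that the authors thresholded on the irreproducible discovery rate (IDR), which compares how peaks rank in a pair of lists. An exon of any gene counted, and a summit inside several kinds of exon was placed in the first that applied of 5' UTR, coding exon, 3' UTR and other exon. The chromatin came from whole embryos aged 0 to 24 h of the transgenic strain stc-GFP, whose insertion targets stc, so that the flies express stc-eGFP fusion proteins. It was sonicated to 200 to 800 bp and precipitated with an anti-GFP antibody. The 2 biological replicates form 1 group, so that no conditions can be compared, the labels name a possible control experiment that was not analysed here, and the files give no read depth. All cell types of the embryo were pooled, so that strong binding in few cells and weak binding in many cells cannot be told apart.

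The human relative of stc is NFX1, a zinc finger protein first described for its binding to the X box of immune genes. Chromatin immunoprecipitation recovers fragments that the protein touched directly or through its partners, mixed with unspecific fragments. Exons differ in what they carry: 5' UTRs lie next to promoters, coding sequence in the fly is richer in G and C than the rest of the gene, 3' UTRs are rich in A and T, and long non-coding RNA (lncRNA) genes have exons with no reading frame. A DNA-binding protein can therefore meet very different sequence in the 4 classes. Peaks are positions in 1 genome and not replicates, so the values below are descriptions, with exact (Clopper-Pearson) 95% intervals that cover counting error only.

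The content of G and C under the summit differed between strong coding members and most strong members of the other classes, and 30 bases centred on the summit are shown here for 11 members, with every G and C in capitals. All are on the plus strand of dm6, from the RefSeq Release 6 assembly. The first 3 lie in coding exons, of l(3)mbn (chr3L:6124806-6124835), Pde1c (chr2L:11816552-11816581) and CG10962 (chrX:8973341-8973370). The next 4 lie in the 5' UTRs of baz (chrX:17178668-17178697) and ph-p (chrX:2137897-2137926) and in the 3' UTRs of APC7 (chrX:6599482-6599511) and CG18577 (chr3R:11197271-11197300). The next 2 lie in exons of the lncRNAs Vinr (chrX:12751387-12751416) and CR44363 (chr3L:11406040-11406069). The last 2, in the 5' UTRs of cic (chr3R:20253350-20253379) and eas (chrX:16278921-16278950), were added after their values were seen, because they go against the difference.
l(3)mbn: CaGGGtaCatttCCGGttGGtGtattCGCt
Pde1c: GtCCCCttaGGCCGCaGCGCCatCtGCCGG
CG10962: CCGGaaCGatCtCGGtGGCCaCCCaGCCGG
baz: ttGtattCtGCtaCattGttaatttaGtta
ph-p: GtaaaatGaaaaCGtttaGtaaaataGaat
APC7: tatCatCCattGtCtaaaaGtGaatGtttt
CG18577: attttaaaaCaCaaatatatGttatGtttG
lncRNA:Vinr: GtGtaaCaatattttaatttCataaaCatt
lncRNA:CR44363: atatatatCatattGGtatttatttttaaG
cic: CCttttCCCCGattCGGCttattGGCattG
eas: GaatCGCCGCttttGaGGCttaaaaGaGGt
The share of G and C in these stretches was 73.3% for Pde1c and for CG10962. In the first 6 stretches from UTRs and lncRNAs it was between 13.3% in CR44363 and 26.7% in APC7. The stretch of l(3)mbn, the lowest of the 3 coding ones, lay between these values, and that of cic held the same share as l(3)mbn, with 46.7% in eas. The 5' UTR members were thus mixed. Apart from cic and eas, the stretches were taken from among the strongest members that held a searched motif or word, but not in strict order of signal. The lncRNA members in CR46035 and CR44619 with signals above that of CR44363 were left out. Among strong members not shown, the stretches of CR46035, Cals, by and stas held more G and C than that of APC7. The highest of these was 36.7% in by, still under l(3)mbn. Those of dnc and CR44619 did not exceed APC7. The 11 therefore do not show a typical member.

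Exons outside promoters held few of the stc peaks for their length. The 286 members were 5.63% of the peaks (95% interval 5.01 to 6.29%), while exons outside promoters hold 22.8% of the bases of the main chromosomes. The deficit was not even among the classes. Coding exons held 72 peaks, 1.42% of the list (1.11 to 1.78%), against 15.6% of the bases. The 3' UTRs held 67 peaks, 1.32% (1.02 to 1.67%), against 4.76% of the bases. The 5' UTRs beyond 250 bp of a TSS held 65 peaks, 1.28% (0.988 to 1.63%), about their share of the bases, which was 1.33%. The exons of non-coding genes held 82 peaks, 1.61% (1.28 to 2%), against 1.19% of the bases, so their interval lay above the share of bases. Of these 82 members, 77 lay in genes named as lncRNAs, 4 in genes named as antisense RNAs and 1 in snRNA:7SKa, a gene for the RNA that restrains the elongation factor P-TEFb.

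In the replicates' own thresholded lists, called separately, coding exons and 3' UTRs also lay below their share of bases and other exons above it. The 5' UTRs held 0.867% of the peaks in replicate 1 (0.557 to 1.29%), below their 1.33% of the bases, and 1.29% in replicate 2. In the conservative list they held 0.966%. Replicate 1 had 113 exonic peaks outside promoters among 2767 and replicate 2 had 188 among 3806. Coding exons held 18 peaks in replicate 1 and 27 in replicate 2, or 0.651% and 0.709% of the 2 lists, both below the 1.42% of the larger list. Other exons held 46 and 67 peaks, or 1.66% and 1.76%, both slightly above it. In the conservative list of the series, coding exons held 29 of 3831 peaks (0.757%) and other exons 67 (1.75%). The makeup of the exonic peaks thus depended on the list. Coding exons held 25.2% of them in the larger list and 16.9%, 15.9% and 14.4% in the conservative, replicate 1 and replicate 2 lists, and other exons 28.7% in the larger list and 39%, 40.7% and 35.6% in those 3.

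**Figure D1:**
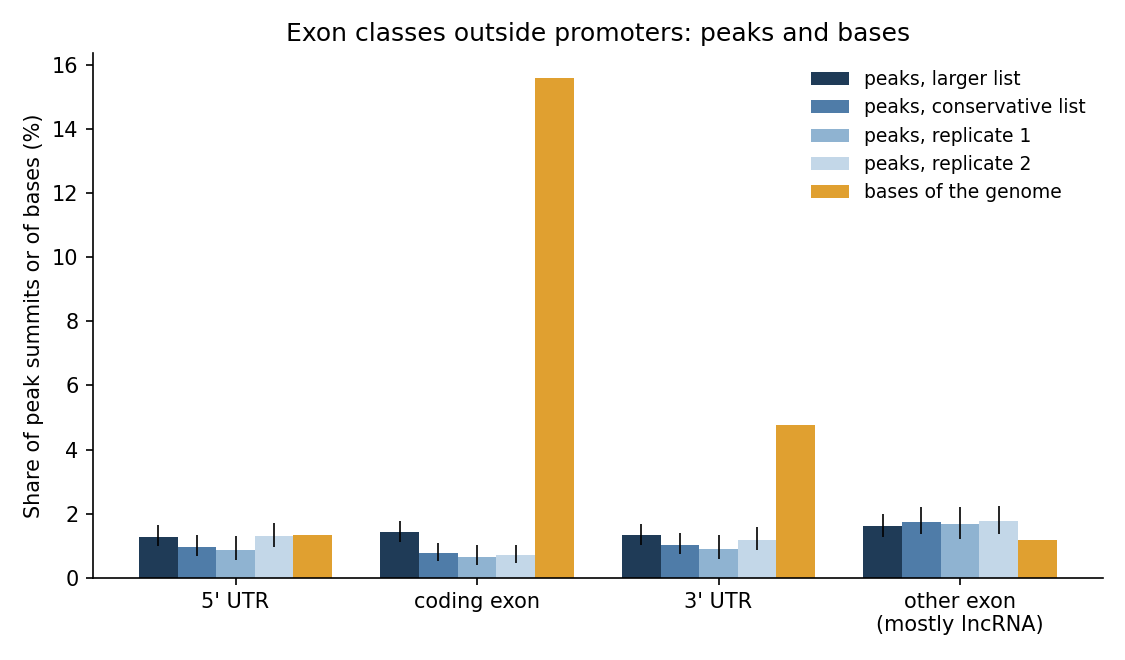
Share of peak summits in each exon class in the 4 thresholded lists (blue bars, percent of all peaks of the list, with exact 95% intervals) beside the share of bases of the main chromosomes in that class (orange bars). Coding exons held 1.42% of the peaks of the larger list against 15.6% of the bases, and other exons held more of the peaks than of the bases in all 4 lists.

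Coding exons were not empty of peaks before the threshold. The ranked file behind the larger list, which holds weak peaks as well, had 27825 peaks in coding exons, 23.2% of its 120177 peaks, but only 72 of these were in the thresholded list, or 0.259% (0.203 to 0.326%). The share was 1.69% for 3' UTRs (1.31 to 2.15%), 2.91% for 5' UTRs (2.25 to 3.69%) and 5.35% for other exons (4.27 to 6.59%). Over all classes it was 4.23%, with 13.2% for promoters, 4.64% for introns and 3.55% for intergenic peaks. Other exons thus passed about as often as introns, and coding exons passed least of all 7 classes. In replicate 1, 0.0849% of ranked coding peaks were in the thresholded list, and in replicate 2, 0.123%. The median signal of ranked coding peaks was 20, near the 21.4 of all ranked peaks, while that of ranked promoter peaks was 29.2.

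**Figure D2:**
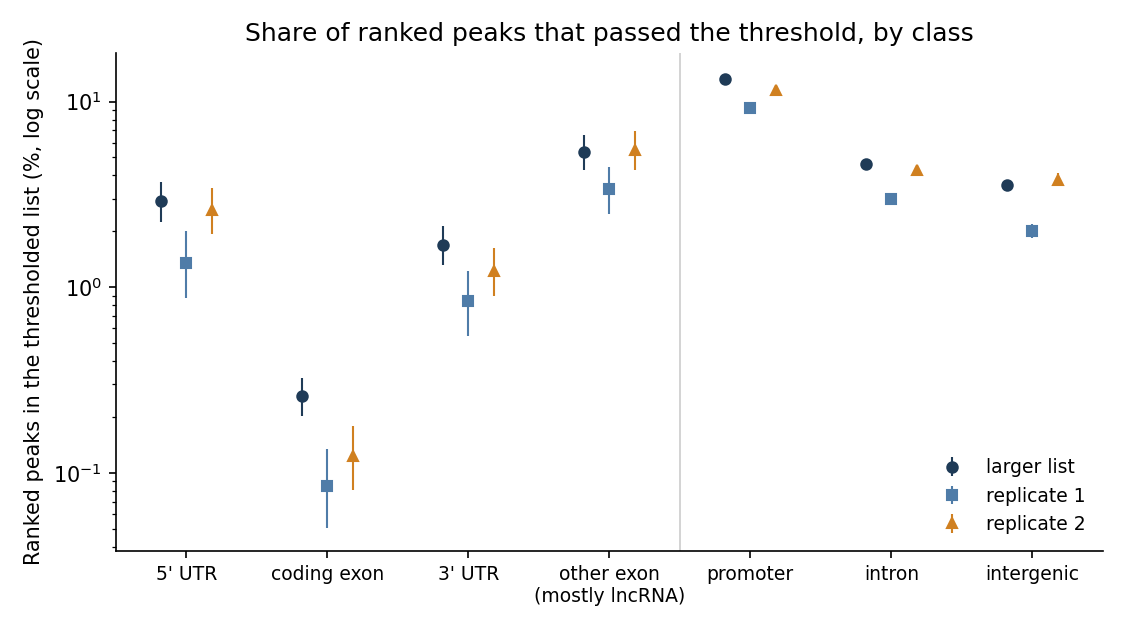
Percent of ranked peaks that were in the thresholded list (log scale), by class, for the larger list and for each replicate, with exact 95% intervals; exon classes are left of the grey line. Coding exons were lowest in all 3 lists, at 0.259%, 0.0849% and 0.123%, and other exons lay beside introns.

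A smaller share of members than of other peaks was found again in the replicates' own thresholded lists, and again coding exons stood lowest. A peak was counted as found where the overlap was at least 50% of the shorter peak. In both lists 81 of 286 members were found, 28.3% (23.2 to 33.9%), against 40.8% of the other 4798 peaks and 40.1% of all peaks. A further 20 members were found in replicate 1 alone and 68 in replicate 2 alone, and 117 (40.9%, 35.2 to 46.9%) in neither, against 23.9% of the other peaks. The share found in both was 11.1% for coding exons (8 of 72), 29.9% for 3' UTRs (20 of 67), 32.3% for 5' UTRs (21 of 65) and 39% for other exons (32 of 82). Of the coding members, 50 (69.4%) were found in neither list. In the conservative list 151 members (52.8%) were found, against 69.8% of the other peaks and 68.9% of all peaks, and here too coding exons were lowest at 33.3% and other exons highest at 70.7%. More peaks were found in replicate 2 alone than in replicate 1 alone throughout the list, 1228 against 554 of all peaks, and the list of replicate 2 was the longer. Among 5' UTR members it was 17 against 1 and among 3' UTR members 20 against 4.

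**Figure D3:**
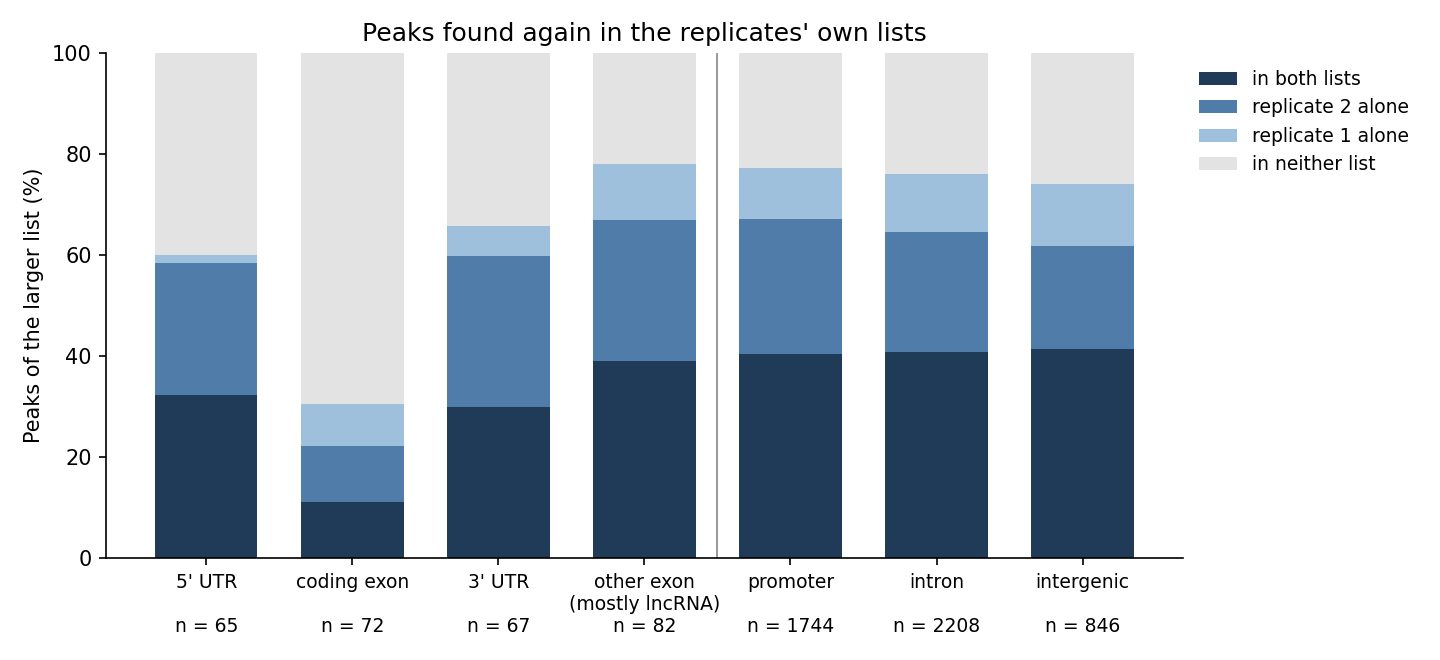
Percent of the peaks of the larger list found in both replicates' thresholded lists, in 1 of them or in neither, by class, with the number of peaks below each bar; exon classes are left of the grey line. Coding exons had 69.4% of their peaks in neither list and other exons 22%, close to promoters at 22.8%.

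The members were on the whole weaker than the rest of the list. Signal is the value that the authors' peak caller gave each peak, in units whose scaling the labels and files do not state. The median was 88.6 for members and 108 for the other peaks. By class it was 75.5 in coding exons, 90.6 in 3' UTRs, 96.4 in 5' UTRs and 104 in other exons, where the order follows that of the replicate support. Among the 500 strongest peaks were 19 members (6.64% of members), against 481 of the other peaks (10%), and 9 of the 19 were in other exons, 6 in 5' UTRs, 3 in 3' UTRs and 1 in a coding exon. The median replicate signal was 40.9 over the 262 members matched to a ranked peak of replicate 1 and 54.1 over the 273 matched in replicate 2. A peak in both ranked replicate lists was matched to 252 members, and 185 of them (73.4%) had the higher signal in replicate 2, as did 67.9% of 4470 other peaks. Across these 252 members the signals of the replicates had a Spearman correlation of 0.52, against 0.63 across those other peaks. For the 60 coding members matched in both it was 0.25. The points of each value share the 2 libraries and a threshold on how peaks rank, and coding members span the narrowest range of signal, with 140.1 the highest in replicate 1 and 187.0 in replicate 2.

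**Figure D4:**
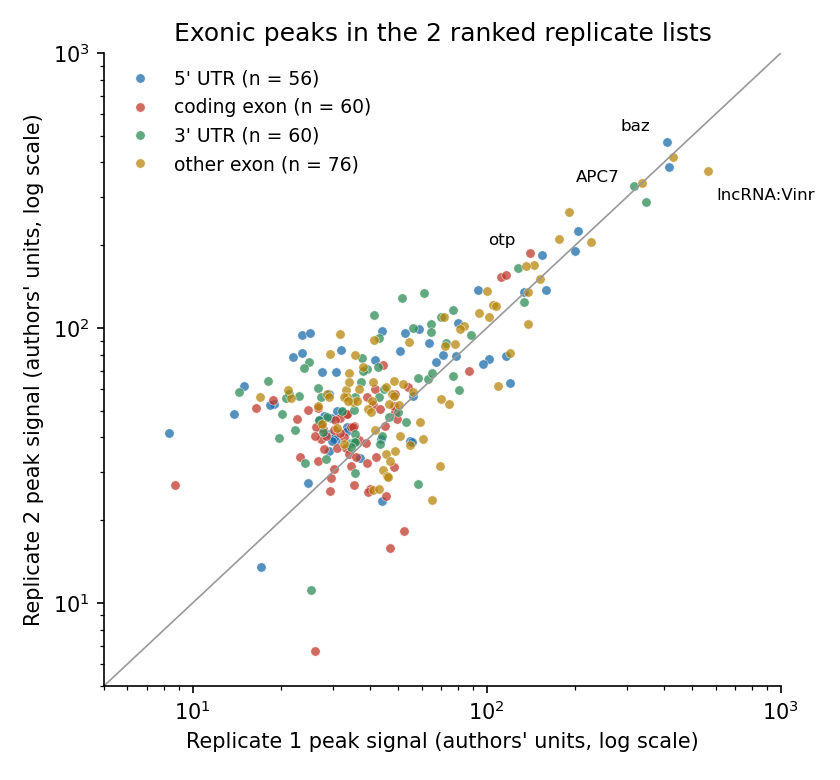
Signal in replicate 1 (x axis) and replicate 2 (y axis) of the 252 exonic peaks matched to a peak of both ranked replicate lists, on log scales, coloured by exon class; the line marks equal signal. Strong members lie near the line, most weak members lie above it, and 185 of the 252 were higher in replicate 2.

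Among 5' UTR members the strongest was in baz, which encodes the Par-3 homologue that organises apical polarity of epithelia (chrX:17178557-17178830). Its signal was 867.3 in the larger list, with 408.5 in replicate 1 and 476.5 in replicate 2, and the summit was 4560 bp from the nearest TSS. A second member in the same gene had a signal of 143.5, and both were found in both lists. The 5' UTR of ph-p, which encodes a subunit of Polycomb repressive complex 1, held a peak of 799.9 (415.1 in replicate 1 and 384.8 in replicate 2), 460 bp from its own TSS. The 5' UTR of dnc, which encodes a cyclic AMP phosphodiesterase needed for learning, held a peak of 432.5 (203.7 and 224.5 in replicates 1 and 2). Neither replicate was the higher in all 3. The other members of highest signal were Fbl6 with 398.2, CG45092 with 339.6 and l(2)k01209 with 310.4. As a class, 42 of the 65 (64.6%) lay in a first exon, the median distance to a TSS was 492 bp, and 29 (44.6%) lay where another transcript of the same gene has an intron. These values were not computed over all 5' UTR sequence, so they cannot be read as traits of the peaks.

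Among 3' UTR members the strongest was in APC7, which encodes a subunit of the anaphase-promoting complex (chrX:6599372-6599604). Its signal was 649.3, with 317.7 in replicate 1 and 327.8 in replicate 2. The summit was 566 bp from the TSS of the neighbouring gene pigs. The 3' UTR of CG18577 held a peak of 635.4 (348.8 and 287.6 in replicates 1 and 2), whose nearest TSS, at 307 bp, was that of cu. Both 3' UTR peaks were thus nearer to another gene's start than to their own. The nearest TSS was that of the host gene in 27 of the 67 3' UTR members (40.3%), against 62 of 65 (95.4%) in 5' UTRs. By position a 5' UTR lies next to its own TSS and a 3' UTR at the far end of the gene. The same share over all 3' UTR sequence was not computed, so the contrast cannot be read as a trait of the peaks. The next 3 were Cals, which encodes the neuronal cadherin calsyntenin, by, which encodes the integrin-linked protein tensin, and stas. The peak in Cals, on chromosome 4, had a signal of 430.5 and 223.9 in replicate 2, but no matching peak in replicate 1 even in the ranked list, and it was not in the conservative list. The peak in by had a signal of 292.4 (127.7 and 165.6) and that in stas 261.3 (133.6 and 124.1).

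Only 8 coding members were found in both replicates' lists: otp, l(3)mbn, Pde1c, CG44812, solo, dnt, bun and CG15531. The strongest was in the last exon of otp, a homeodomain transcription factor gene, on chromosome 2R, with a signal of 327.5 (140.1 in replicate 1 and 187.0 in replicate 2). The peak in a coding exon of l(3)mbn had a signal of 278.1 (112.1 and 153.8). The peak in Pde1c, which encodes a calcium-dependent cyclic nucleotide phosphodiesterase, had a signal of 268.2 (115.9 and 156.0), and its GC-rich summit is printed above. All 3 were higher in replicate 2. After these the signal fell steeply, to 153.2 in CG44812 (86.7 and 69.9), which lies in an intron of bs, the gene of the fly serum response factor. The fifth, CG10962, inside an intron of rdgA, had a signal of 116.1, with 58.2 in replicate 1 and no matching peak in replicate 2. The gene stc itself held a coding member, with 53.6 in the larger list and nearly equal values of 30.3 in replicate 1 and 30.6 in replicate 2. It was in neither replicate's thresholded list nor in the conservative list. The insertion of the transgene targets stc, and its part in that peak was not tested.

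Other exons held the strongest member of all, in the single exon of the lncRNA Vinr (chrX:12751222-12751562), with a signal of 927.8, 564.3 in replicate 1 and 373.2 in replicate 2. It stood in a group of 5 members and 3 intergenic peaks. Of the other members, 3 lay in exons of the neighbouring lncRNA CR44619, with signals of 669.4 (338.2 and 337.3), 431.1 (226.8 and 205.2) and 71.7 (27.6 and 44.7), and 1 in the 3' UTR of CG4004, with 86.7. The 3 peaks over 400 in this locus were all at least as high in replicate 1, unlike most members. The lncRNA CR46035, whose single exon lies inside an intron of osa, a subunit gene of the Brahma chromatin remodelling complex, held a peak of 837.7 (430.4 and 419.5). CR44363 held 448.9 (189.8 and 264.6) and CR45251, the next in signal, 388.0 (176.1 and 210.9). The signals of CR42719, CR43334, CR45997 and CR44628 lay between 288.1 and 303.4, and CR45997 lies in an intron of mbl, the muscleblind splicing regulator. Of the 82 members, 53 (64.6%) lay in single-exon transcripts and 22 (26.8%, 17.6 to 37.8%) inside an intron of another gene. The same shares over all exons of non-coding genes were not computed, so these cannot be read as traits of the peaks.

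The host of most members was the lncRNA CR43334, from which the microRNA bantam, a promoter of growth and cell survival, is made. Its exon of 15466 bp held 7 members over 12081 bp on chromosome 3L, with signals of 90.5, 118.1, 237.3, 301.7, 80.4, 128.4 and 82.9 in order of position. The 2 over 200 were found in both replicates' lists, with 107.3 and 120.4 for the first and 144.3 and 170.0 for the second in replicates 1 and 2, and the member nearest the mir-ban hairpin, 595 bp from it, was found in neither. After these values had been seen, all 69 non-coding genes that hosted other-exon members were searched for annotated microRNAs on the same strand. In 10 (14.5%, 7.17 to 25%) there was at least 1, against 37 (1.47%) of the 2520 genes that the annotation types as ncRNA and that are not microRNA genes themselves, a set without tRNA, rRNA, snRNA and most snoRNA genes. The others were the hosts of mir-8, of mir-277 and mir-34, of mir-279 and mir-996, of mir-282, of mir-275, of mir-375, of mir-2c, mir-13a and mir-13b-1, of mir-276a and of mir-958, whose members had signals of 175.3 at most. Counted the other way, 10 of 37 genes with a microRNA inside held a member (27%, 13.8 to 44.1%), against 59 of 2483 without (2.38%). Genes with a microRNA inside are longer, with a median exon length of 2909 bp against 649 bp. Within genes of over 5000 bp of exon, 6 of 13 with a microRNA held a member (46.2%, 19.2 to 74.9%) and 4 of 39 without (10.3%, 2.87 to 24.2%), so the ratio of the shares was smaller there and their intervals overlapped. Between 2000 and 5000 bp it was 3 of 16 (18.8%, 4.05 to 45.6%) and 8 of 144 (5.56%, 2.43 to 10.7%), again with overlapping intervals.

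The mean GC content around the summit had its maximum at the summit in coding members and its minimum there in 3' UTRs and other exons. In 5' UTRs it only dipped there, to 40.97% in 51 bp windows, and was lower at the ends of the profile. It was 39.22% at 500 bp to the left and 39.03% at 475 bp to the right. Over 101 bp at the summit, coding members averaged 56.5 ± 8.6% G and C (SD, n = 72 peaks), against 43.4 ± 9.4% in windows of the same size 300 bp to each side. It was higher at the summit in 57 of the 72 (79.2%). This was largely shared with the 27825 ranked coding peaks, most of them under the threshold, with 54.6% at the summit and 49.0% beside it, and 71.4% of them higher at the summit. Among strong coding members CG44812 went the other way, with 39.6% at the summit and 58.9% beside it. The other classes averaged lower at the summit, with 34.9% against 44.8% beside it in other exons and 34.6% against 38.3% in 3' UTRs. In 5' UTRs it was 41.5% at the summit and 43.1% beside it, and 31 of the 65 (47.7%) were higher at the summit. The 21 found in both replicates' lists had 34.8% against 43.9%, while the 17 found in replicate 2 alone had 42.6% against 39.9% and the 26 found in neither 46.3% against 44.0%. This split was not particular to exons. Promoter peaks had 31.2% against 44.0% where found in both lists, 44.2% against 39.8% in replicate 2 alone and 41.8% against 42.5% in neither. Intron and intergenic peaks averaged lower at the summit in each of these sets. The other 4798 peaks of the list averaged 35.2% at the summit and 43.0% beside it, so other-exon members were like the rest of the list, and coding members went the other way. The 8 coding members found in both replicates had 56.3% at the summit and 37.9% beside it, higher at the summit in 7 of 8, so the contrast was no smaller in them.

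**Figure D5:**
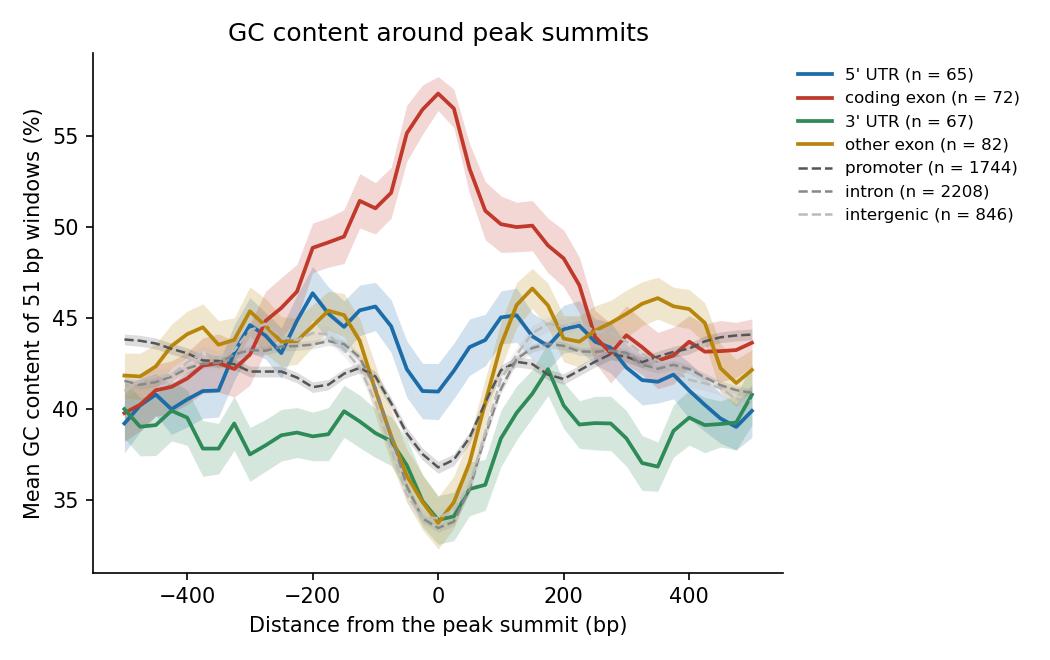
Mean GC content in 51 bp windows (y axis, percent) by distance from the summit (x axis, bp) for each class; bands are 1 standard error over peaks, solid lines exon classes and dashed lines the other peaks. Coding exons had a maximum at the summit, and promoters, introns, intergenic sequence, 3' UTRs and other exons a minimum there. The 5' UTRs had a shallower dip there, with lower values at the ends of the profile.

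Coding bases are GC-rich wherever they lie, 53.4% over all coding exons outside promoters, and a short exon has introns beside it. The members were therefore divided by whether the centres of their side windows were coding. In the 15 members with coding sequence on both sides, GC was 54.0 ± 4.8% at the summit and 54.2 ± 4.8% beside it, higher at the summit in 7 of 15. In the 33 with coding sequence on 1 side it was 56.5 ± 9.3% and 43.4 ± 7.2%, higher in 28. In the 24 with coding sequence on neither side it was 58.1 ± 9.3% and 36.6 ± 7.8%, higher in 22. The summit level was thus alike in the 3 sets, within 1 SD of that of all coding bases, and it was the sides that differed. Members had coding sequence on both sides in 20.8% (12.2 to 32%), against 50.7% of the ranked coding peaks, most of which did not pass the threshold. The median distance from a coding summit to the nearest edge of its exon was 130 bp, and the median length of the exon 590 bp.

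The words of 6 bases that set the rest of the list apart were nearly missing from coding summits. The 10 words most in excess at the summits of the other 4798 peaks, read on both strands, were all made of A and T, and AAATAT was the first of them. At least 1 lay within 50 bp of the summit in 11 of 72 coding members (15.3%, 7.88 to 25.7%). The share was 66.2% in 5' UTRs, 78% in other exons and 82.1% in 3' UTRs, and 78.2% in the other peaks. In windows 300 bp away it was between 51.8% and 63.4% in the 4 classes, so that 3' UTR, 5' UTR and other-exon members had more of these words at the summit than beside it and coding members fewer. Only 15 of the 72 coding members had coding sequence on both sides, so most of their side windows were not like the summit in kind. How often these words occur in all coding sequence was not tested. These words overlap each other, as at Vinr, where 6 of the 10 were present. AAATAT alone was present in 35.4% of other-exon members, 26.9% of 3' UTR, 16.9% of 5' UTR and 2.78% of coding members, against 31.6% of the other peaks.

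Of 23 motifs searched on both strands, a few were more common at coding summits than in the rest of the list. CAGCAGCAG, a repeat that often encodes glutamine, was in 6 of 72 coding members (8.33%, 3.12 to 17.3%), against 0.396% of the other peaks. The 6 were bun, the insulin receptor gene InR, l(2)k09913, CG4080, Rga and the kinase gene slpr. CAGCTG, an E-box, was in 10 (13.9%) against 3.56%, and AGGNGGC, letters from the core of the CTCF motif, in 8 (11.1%, 4.92 to 20.7%) against 2.73%. Pde1c held both of these. The side windows of coding members held CAGCAGCAG in 0.694%, CAGCTG in 4.86% and AGGNGGC in 6.25%, the last within the interval at the summit. Of the coding members with any of these motifs, only bun, Pde1c and solo were found in both replicates' lists. TATAAA was in 0 of 72, which allows up to 4.99%, against 21.1% of the other peaks. GTTGCTA, letters from the X box named above for human NFX1, was in 4 of the 286 members (1.4%, 0.382 to 3.54%), against 1.27% of the other peaks and 0.874% of the members' side windows, both within the interval of the members. How often these letters occur in all coding sequence was not tested.

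Most of the listed genes held no exonic peak, as was so for most protein-coding genes. Over all protein-coding genes 188 of 13945 held a member in an exon (1.35%). Of the listed Hox and segmentation genes it was 0 of 33, of neural fate and glial genes 0 of 27 and of cytoplasmic ribosomal protein genes 1 of 82, counts too small to set apart from 1.35%. The 1 was RpL17, with a coding member of 75.5 in the larger list that neither replicate's list held. There were 2 of 30 axon guidance genes, the netrin gene NetB with 137.5 in its 3' UTR and the tyrosine kinase gene Abl with 107.5 in a coding exon. There was 1 of 17 mesoderm and muscle genes (Mef2, 104.1), 1 of 34 signalling genes (Stat92E of the JAK/STAT pathway, 148.4), 1 of 26 chromatin genes (ph-p, above), 1 of 25 translation and mRNA control genes (vas, through an exon it shares with solo, 107.8) and 2 of 17 stress genes (the small heat shock gene Hsp22, where exons of CG4456 overlap, with 188.8, and stc). Of the 10 lists, which were drawn up with earlier results of these data known, the ecdysone response genes had the highest share, 3 of 15 (20%, 4.33 to 48.1%), all nuclear receptor genes: Hr4 with 123.3, Eip78C with 66.6 and Hr3 with 63.3. Of these 3 only the peak in Hr4 was found in both replicates' lists, with 58.4 in replicate 1 and 65.5 in replicate 2. The ecdysone list was singled out as the highest of 10, and exon length was not matched. Its share therefore cannot be read as a trait of these genes. No pseudogene held a member, in 268 genes. Genes too short to reach 250 bp from their own TSS, such as those of tRNAs and most snoRNAs, could not hold one by the rule.

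The weakest members, like the weakest of the other peaks, mostly overlapped a stronger peak. A signal under 50 was seen in 26 members (9.09%, 6.02 to 13%), against 5.04% of the other peaks. Of the 26, 23 overlapped a stronger peak of the list whose summit was 199 to 257 bp away, and 220 of the 242 other peaks under 50 overlapped a stronger one too. The 5' UTR peak of the enolase gene Eno, at 2.4, overlapped a promoter peak of 406.4, and the 5' UTR peak of dnt, at 25.1, overlapped the coding peak of the same gene at 104.6. Both dnt members were matched to the same replicate 2 peak, of 52.0. The exceptions were wb, SerRS-m and CG7611, at 46.4, 31.0 and 21.5. Near the limit of 250 bp the members closest to a TSS were CG2961 at 251 bp (signal 166.6), bip1 at 253 bp and CR44276 at 258 bp. On the promoter side, the exonic summits nearest to it were in lqf and at mir-34, both at 250 bp, and in alphaSnap at 247 bp, and 596 summits in exons lay within the promoter window.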

How the data were processed

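Peaks on dm6 came from the deposited lists of both replicates and of the series, per the labels. Aligner, peak caller and read depth were not given in the sources used here, and the signal of a peak is the value the authors deposited, unscaled here. The authors' score encodes the IDR, and the −log10 values they deposited hold the IDR itself, which was 0.01 or less in every thresholded peak, tested on the files. The first inputs named in the larger list's ranked file matched a replicate 1 peak for 0.00166% of peaks, and those in the conservative list's file for 72.7%. Exons and TSSs were those of Ensembl BDGP6 6.54 (release 115), microRNA genes included and transposable elements left out. Sequence was RefSeq Release 6. Analysis used Python 3.11.15, numpy 2.4.6, scipy 1.17.1 and matplotlib 3.10.9. Classes and overlaps were tested on simulated data, and 5000 of 5000 positions and 1000 of 1000 peaks came out as made. The members, the 10 gene lists and the motifs were chosen with earlier results of these data known. Named were the 20 strongest members found in both replicates, the 5 strongest of each class, 3 on each side of the TSS limit and up to 4 of each gene list. The alternatives changed the list, TSS distance, IDR limit, exon definition, class order, overlap and window.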

Additional observations from a re-analysis of the deposited data

How the results depend on the processing

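The 286 members became 172 in the conservative list, 113 to 188 with 1 replicate left out, that is in the other replicate's own list, 489 and 190 at a TSS distance of 100 and 500 bp, and 114 at an IDR of 0.001 or less. Their share of all peaks, 5.63%, was 4.49% in the conservative list, 4.08 to 4.94% with 1 replicate left out, 9.62% and 3.74% at 100 and 500 bp, 4.09% at the stricter IDR, and 3.95% in exons that no transcript crosses as an intron. The share of members in coding exons, 25.2%, was 16.9%, 14.4 to 15.9%, 20.9%, 27.4%, 13.2% and 28.4% under the same 6 changes in that order, 26.6% with coding exons first in the class order and 23.7% without overlapping peaks. For 3' UTRs the share, 23.4%, was 22.1 to 23.9% with 1 replicate left out, 17.2% and 27.9% at 100 and 500 bp, 21.9% at the stricter IDR and 26.9% in exons that no transcript crosses. For other exons it was 28.7%, and 39% in the conservative list, 35.6 to 40.7% with 1 replicate left out, 21.3% at 100 bp and 37.7% at the stricter IDR. The share found in both replicates, 28.3%, was 46.5% in the conservative list and 69.3% at the stricter IDR, where the median signal was 148.4 in place of 88.6. The cause was not tested. Transposable elements counted as genes, an alternative chosen after seeing the data, gave 288 members, 5.66% of all peaks, with the same median signal of 88.6. Coding exons then held 25% of members, 3' UTRs 23.3% and other exons 29.2%, and 28.1% were found in both replicates. The share of coding members with more G and C at the summit, 79.2%, was also tried under the alternatives after seeing the data and stayed between 76.9% and 93.3%. With windows of 100 bp to each side of the summit, 20 of 33 shares of members with a motif or word moved beyond their intervals, and in the conservative list 8 of 33. The wider window contains the narrower one, so with it a share could only stay or rise. The count of 20 therefore does not measure how stable these shares are. No paired analysis was possible because there was 1 group only. Depth is unknown, so limits on weak peaks cannot be set.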

Other observations

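The lncRNA that makes mir-8, CR43650, held 3 members over 8072 bp on chromosome 2R, with signals of 64.8, 89.0 and 124.7, and a promoter peak of 152.0. The gene CG1888 held 3 members in its 3' UTR, at 93.8, 78.8 and 12.7, beside a promoter peak of 898.8. The members of 78.8 and 12.7 overlapped, with summits 217 bp apart. In all, 23 genes held more than 1 member, 54 members together. These are not all separate sites, because in several genes the members were overlapping peaks. The 2 summits were 199 bp apart in Gr47b, 200 bp in JIL-1 and 244 bp in CG5953. The promoter peak of CG1888 was thus far stronger than its exonic peaks, while CR44619 and CR43334 had members among the 500 strongest peaks of the list. Among members, a host gene with a promoter peak of its own was seen for 64 of 286 (22.4%, 17.7 to 27.7%), most often in 5' UTRs (32.3%) and least often in other exons (14.6%). The same share over all genes was not computed, so these values cannot be read as high or low. The 5' UTR members were also the nearest to a TSS, with a median of 492 bp.

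Of the ranked peaks with an IDR of 0.01 or less, 135 were not in the larger thresholded list, and 5 of them were exonic outside promoters, 3 in 5' UTRs and 2 in other exons. They were not counted as members.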
